A study of Mus musculus with 6 samples.

Results

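Expression of 10 genes of blood and lymphatic endothelium, the cells that line blood vessels and lymph vessels, was examined in mammary tumors and normal, adjacent mammary glands of BK5.ATF3 transgenic mice. The genes were taken by symbol as markers of endothelium in general (*Pecam1*, *Cdh5*, *Kdr*, *Flt1*, *Tek*, *Tie1* and *Emcn*) or of lymphatic endothelium (*Lyve1*, *Prox1* and *Flt4*), and all 10 were present among the 15280 genes measured. In these mice, a keratin 5 promoter drives *ATF3* in basal epithelial cells, so the transgene is not aimed at endothelium. The females had raised 1 litter, developed tumors when 6 to 12 months old and were sacrificed once a tumor was 1.5 cm long. From each of 3 mice, 1 tumor (libraries T11035, T11640 and T9232) and the normal, adjacent gland of the same animal (M11035, M11640 and M9232) were sequenced, so n = 3 for each tissue. Both tissues carried the transgene and no wild-type gland was analysed here, so tumor and gland are compared within transgenic animals only. The age of each mouse is not given in the sources used here.

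As background, endothelial growth is driven by VEGF ligands and their receptor tyrosine kinases. VEGFA signals mainly through KDR (VEGFR2), whereas FLT1 (VEGFR1) binds VEGFA, VEGFB and PGF and acts in part as a decoy. FLT4 (VEGFR3) binds VEGFC and VEGFD and is needed for the growth of lymph vessels. The angiopoietins act on TEK (Tie2), with TIE1 as its partner, and regulate how quiescent a vessel is. The identity of lymphatic endothelium depends on the transcription factor PROX1, and LYVE1 is a hyaluronan receptor of lymph vessels that some tissue macrophages also carry.

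The libraries held between 4750989 and 7806908 fragments on genes, and expression is given in CPM, the count of a gene scaled by the authors to the effective library size. A floor of 3 fragments corresponded to between 0.393 and 0.610 CPM, which covers counting error only. Markers of other cell types also moved between the tissues. The 7 adipocyte markers, which include *Adipoq*, were all downregulated, with a summed level of 839 to 1463 CPM in the glands and 16.9 to 20.3 CPM in the tumors. All 6 B cell markers were downregulated (304 to 739 CPM against 9.14 to 10.7 CPM), as were 2 of 3 measured lymph node stroma markers (250 to 948 CPM against 9.49 to 67.9 CPM). Epithelial markers were upregulated in 6 of 7 cases, from 230.2 to 501 CPM in the glands to between 2421 and 2811 CPM in the tumors. Skeletal muscle markers summed to 3615 CPM in M11035 and 1410 CPM in M11640 but to 2.87 CPM in M9232, with *Ckm*, *Acta1* and *Actn3* at 0 there, and to between 6.68 and 12.8 CPM in the tumors. With limma, 0 of these 5 muscle genes passed the thresholds, and 5 did with edgeR and with DESeq2. In such bulk tissue, fewer endothelial cells and less RNA per endothelial cell cannot be told apart. The part of the adipocyte, lymphoid, muscle and epithelial markers in the results that follow was not tested.

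**Figure D1:**
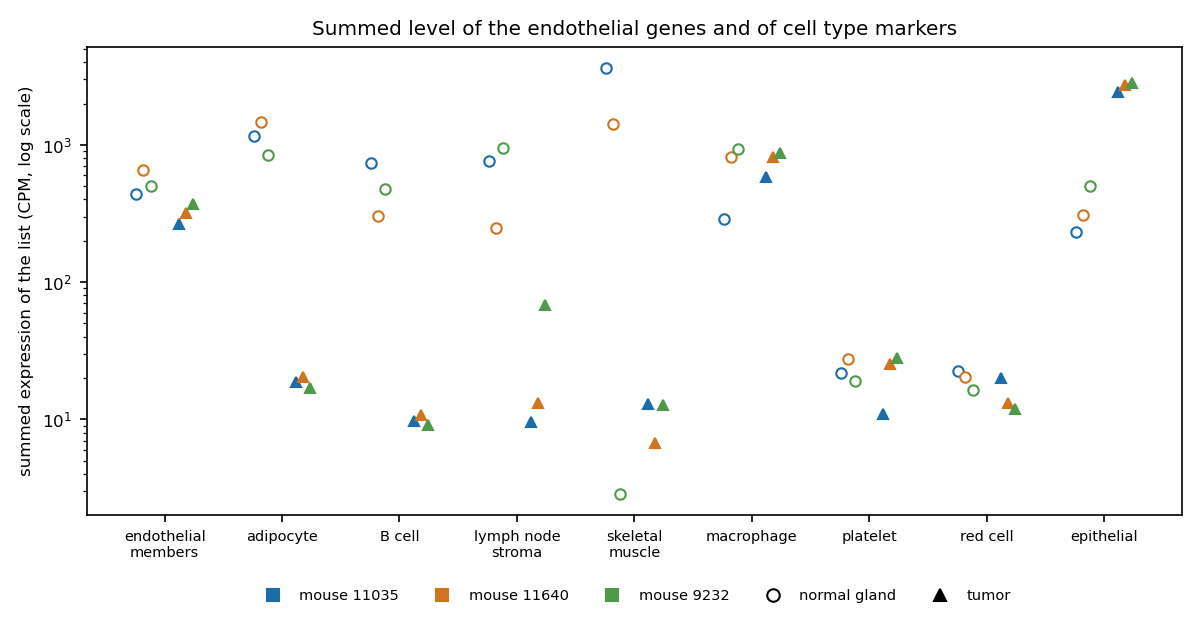
Summed expression in CPM (log scale) of the 10 endothelial genes and of the marker genes of 8 other cell types in the 6 libraries, with open circles for normal glands, triangles for tumors and colors for mice. The summed endothelial level ranged from 440.2 to 652 CPM in the glands and from 264 to 369 CPM in the tumors, while the adipocyte and B cell sums lay far apart between the tissues.

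The endothelial genes did not move as 1 block. With limma on log2(CPM + 0.5), a gene was called downregulated or upregulated if its FDR did not exceed 0.05 and its log2 fold change (tumor minus normal gland) was at least 1 in size. *Kdr*, *Tek*, *Lyve1* and *Prox1* were downregulated in the tumors, and none of the 10 genes was upregulated. Thus 4 of 10 (40%) were called lower, where 13.7% of all genes were called lower, 14.5% were called higher and 28.2% were called in either direction. The 3 tumors lay entirely below the 3 glands for 5 of the 10 genes (50%), and 54.0% of all genes were separated in this way in 1 direction or the other. None of the 10 lay entirely above the glands, so the share separated in either direction was 50% and near the background. The share of all genes that lay entirely below was not counted. The median log2 fold change of the 10 genes was -0.55, against 0.00 for all genes. The mean was lower in the tumors for 8 of the 10 genes, and higher for *Flt1* and *Emcn*. Among the glands, M11640 had the highest level of 8 of the 10 genes. Among the tumors, T9232 had the highest level of 5.

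**Figure D2:**
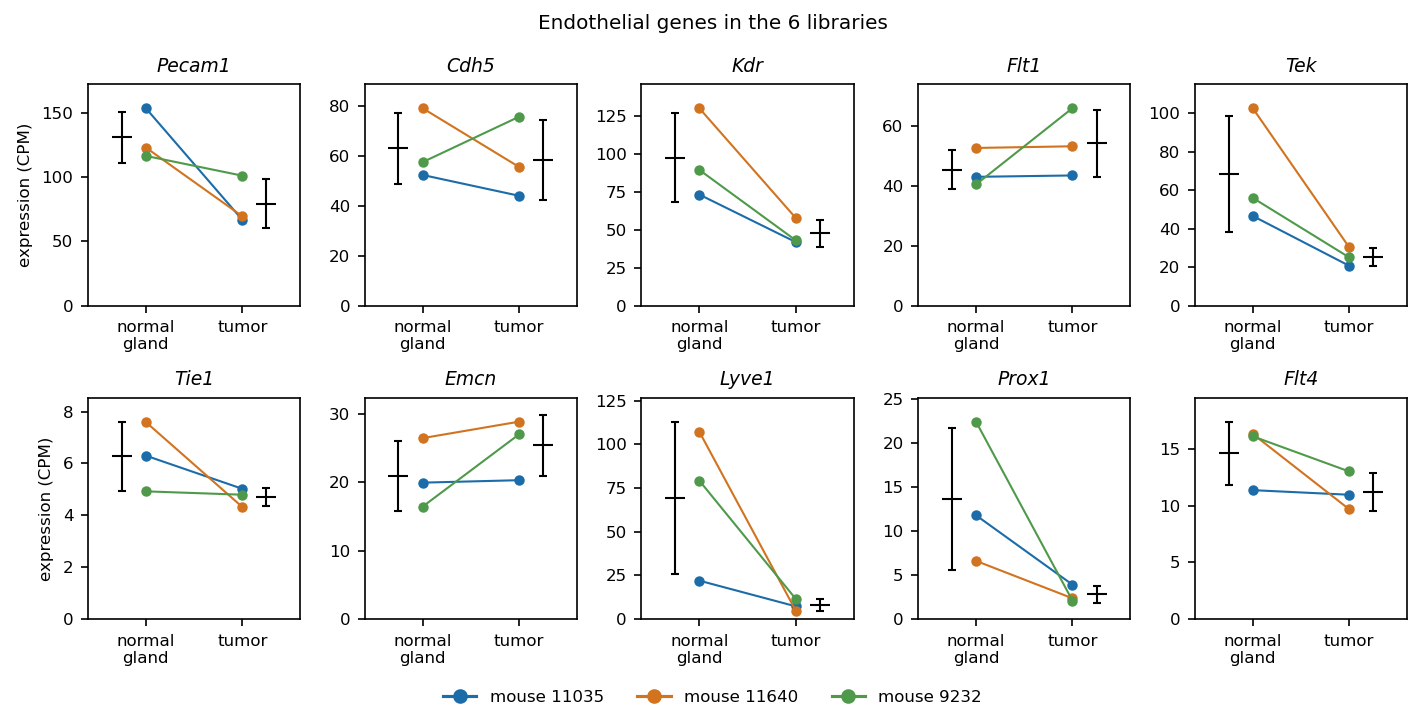
Expression in CPM of each of the 10 endothelial genes, with 1 point per library, a line joining the normal gland and the tumor of the same mouse, and the mean with SD (n = 3) beside each tissue. All 3 lines descend for *Kdr*, *Tek*, *Lyve1* and *Prox1*, and also, in part slightly, for *Pecam1*, *Tie1* and *Flt4*. Those of *Cdh5* go both ways, and those of *Flt1* and *Emcn* are level or rise.

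The 2 junctional genes differed from each other. *Pecam1* (chromosome 11, 106515531 to 106611942, mm9) encodes an adhesion molecule, CD31, that endothelium shares with platelets and some leukocytes. Its level was 154, 123 and 117 CPM in glands M11035, M11640 and M9232 and 66.8, 69.6 and 101 CPM in the tumors of the same mice. The tumors lay below the glands without overlap, but T9232 was close to its own gland. The difference was -0.74 on the log2 scale (standard error 0.20, adjusted p = 0.017, limma), which passed the FDR but not the fold threshold. The FDR was missed without M11035 (adjusted p = 0.051, limma), T11035 (0.060) or T11640 (0.074). The platelet markers *Itga2b*, *Pf4* and *Ppbp* summed to between 18.9 and 27.4 CPM in the glands and between 11.0 and 28.2 CPM in the tumors, and none of the 3 was called. Of the leukocyte lists, the B cell markers summed to 739, 304 and 477 CPM in the glands and to between 9.14 and 10.7 CPM in the tumors. The macrophage sums overlapped (289 to 936 CPM in the glands, 585 to 872 CPM in the tumors). The part of platelets and leukocytes in the *Pecam1* level was not tested.

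*Cdh5* (chromosome 8, 106625525 to 106668402) encodes VE-cadherin, the adherens junction protein of blood and lymphatic endothelium alike. It stood at 52.5, 79.3 and 57.6 CPM in the glands and at 44.1, 55.7 and 75.8 CPM in the tumors. The ranges overlapped, and the highest tumor, T9232, was above its own gland while the other two tumors were below theirs. On the log2 scale the tumors differed by -0.12, with a 95% interval of -0.66 to 0.42 (adjusted p = 0.72, limma). Its sign turned, to 0.06, when gland M11640 or tumor T11035 was left out. The interval does not reach a change of 2-fold in either direction.

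The VEGF receptors for which VEGFA is a ligand, *Kdr* and *Flt1*, diverged. *Kdr* (chromosome 5, 76328852 to 76374483) was at 73.2, 130.2 and 89.5 CPM in the glands and at 41.9, 57.8 and 43.0 CPM in the tumors. Every tumor lay below every gland. On the log2 scale the difference was -1.004 (standard error 0.23, 95% interval -1.54 to -0.47, adjusted p = 0.0090, limma), and mouse by mouse, in the same order, it was -0.80, -1.16 and -1.05. This fold lay just past the threshold, so the call was made in 10 of 15 alternative analyses (other pseudocounts, filters, scalings, tests or a mouse block, or 1 library left out) and lost in the other 5. Those were a pseudocount of 1, DESeq2 size factors, and the fits without M11640 (-0.78), T11035 (-0.92) or T9232 (-0.94), in each of which the FDR was still passed.

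*Flt1* (chromosome 5, 148373180 to 148537587) was at 42.9, 52.5 and 40.4 CPM in the glands and at 43.4, 53.1 and 65.8 CPM in the tumors. The tissues overlapped, and in the mice of T11035 and T11640 the tumor and the gland differed by 0.02 and 0.01 on the log2 scale. Its log2 fold change was 0.24, with a 95% interval of -0.20 to 0.69 (adjusted p = 0.35, limma). The number of *Kdr* fragments per *Flt1* fragment was 1.71, 2.48 and 2.22 in the glands and 0.966, 1.09 and 0.654 in the tumors. This ratio, which was chosen after its values were seen and is given without a test, was lower in every tumor than in every gland. The ratio does not depend on the scaling of the libraries.

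The Tie receptors also separated. *Tek* (chromosome 4, 94405980 to 94541667), the angiopoietin receptor, was at 46.6, 102.6 and 55.9 CPM in the glands and at 20.7, 30.3 and 25.02 CPM in the tumors. No tumor reached the lowest gland. The difference was -1.35 on the log2 scale (standard error 0.29, adjusted p = 0.0065, limma), with -1.15, -1.74 and -1.15 in the 3 mice, and the call was made in all 15 alternative analyses. *Tie1* (chromosome 4, 118143796 to 118162666), whose product pairs with TEK, was much less abundant, at 6.30, 7.60 and 4.92 CPM in the glands and 5.02, 4.32 and 4.795 CPM in the tumors. These values overlapped, although each tumor was below its own gland, and the log2 fold change was -0.36, with a 95% interval of -0.92 to 0.20 (adjusted p = 0.27, limma). There were 7.39, 13.5 and 11.4 *Tek* fragments per *Tie1* fragment in the glands and 4.11, 7 and 5.22 in the tumors, again a ratio chosen after its values were seen.

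*Emcn* (chromosome 3, 137004031 to 137095149) encodes endomucin, a sialoglycoprotein of capillary and venous endothelium. It was at 19.9, 26.4 and 16.4 CPM in the glands and 20.3, 28.8 and 27.0 CPM in the tumors. Each tumor was above its own gland, but the tissues overlapped, and the log2 fold change was 0.28, with a 95% interval of -0.24 to 0.81 (adjusted p = 0.36, limma). Of the 7 genes of endothelium in general, *Kdr* and *Tek* were therefore called, *Pecam1* passed the FDR alone with all 6 libraries, and *Cdh5*, *Flt1*, *Tie1* and *Emcn* passed neither threshold.

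The members of each receptor pair are paralogs, so their transcripts were compared for sequence that reads could share. In a BLAST search of protein-coding transcripts, the longest match between *Kdr* and *Flt1* was 70.7% identical over 1154 bp and that between *Tek* and *Tie1* was 73.8% identical over 973 bp. None of the 10 genes had a match of at least 95% over at least 200 bp in another gene. The 250 bases before the RefSeq start of these 4 genes (build GRCm38.p6, with the strand of the gene in parentheses) are shown as a description only. Capitals mark ETS-type motifs, AGGAAG or CGGAAG on either strand, since ETS factors such as ERG and FLI1 are known to act in endothelium.
Kdr, chr5:75978456-75978705 (-): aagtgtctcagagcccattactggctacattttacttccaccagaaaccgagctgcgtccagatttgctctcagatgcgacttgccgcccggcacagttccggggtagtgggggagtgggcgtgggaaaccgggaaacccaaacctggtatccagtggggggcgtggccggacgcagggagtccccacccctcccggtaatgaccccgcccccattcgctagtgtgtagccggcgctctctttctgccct
Flt1, chr5:147726012-147726261 (-): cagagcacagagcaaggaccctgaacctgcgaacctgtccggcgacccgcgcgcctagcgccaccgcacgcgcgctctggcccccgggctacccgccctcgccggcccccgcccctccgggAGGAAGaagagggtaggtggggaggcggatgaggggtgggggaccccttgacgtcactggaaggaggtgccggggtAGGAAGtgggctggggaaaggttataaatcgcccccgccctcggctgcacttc
Tek, chr4:94739039-94739288 (+): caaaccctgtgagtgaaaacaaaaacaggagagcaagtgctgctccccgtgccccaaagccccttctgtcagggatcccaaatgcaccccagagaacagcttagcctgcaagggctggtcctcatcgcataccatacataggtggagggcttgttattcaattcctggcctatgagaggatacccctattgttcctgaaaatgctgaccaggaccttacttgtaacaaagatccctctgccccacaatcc
Tie1, chr4:118489850-118490099 (-): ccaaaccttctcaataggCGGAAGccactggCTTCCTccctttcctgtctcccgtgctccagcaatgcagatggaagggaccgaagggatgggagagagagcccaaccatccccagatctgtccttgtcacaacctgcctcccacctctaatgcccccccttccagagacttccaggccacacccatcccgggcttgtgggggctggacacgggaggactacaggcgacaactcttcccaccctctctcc

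In these windows, AGGAAG (or CTTCCT) was found in *Flt1*, at -129 and -53 from the start, and in *Tie1*, at -219, and CGGAAG (or CTTCCG) in *Tie1*, at -232. Neither motif was in the *Kdr* or *Tek* window. RefSeq windows were at hand for 7 of the 10 genes, with 2 for *Prox1*, and among these 8 windows AGGAAG was in 3 (the third is that of *Emcn*, at -174 and -93) and CGGAAG in 1. Among all 32851 promoter windows of this length, 29.5% held AGGAAG and 13.6% held CGGAAG. The GATA-type motif AGATAA (or TTATCT) was in 0 of the 8 windows and in 9.99% of all windows. A match describes the letters of the window only. No other form of these motifs was searched, and a link between the motifs and the levels was not tested. Windows of *Pecam1*, *Cdh5* and *Lyve1* were not used here.

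**Figure D3:**
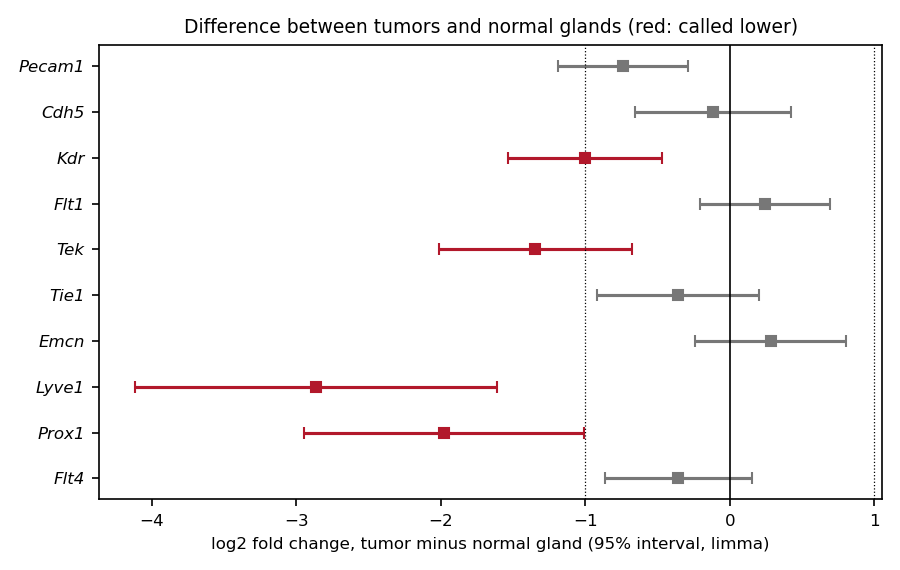
Log2 fold change of each endothelial gene, tumor minus normal gland, with its 95% interval from limma (n = 3 per tissue); dotted lines mark the threshold of 1 in each direction and red marks genes called lower. *Lyve1* and *Prox1* lie farthest to the left, at -2.86 and -1.98, and *Kdr* lies on the threshold at -1.004.

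Of the 3 lymphatic genes, 2 had the largest falls of all 10. *Lyve1* (chromosome 7, 117994121 to 118006467) was at 21.96, 107 and 79.2 CPM in the glands and at 7.26, 4.85 and 11.5 CPM in the tumors. All 3 tumors were below the lowest gland, M11035, which itself stood well below the other two glands. The log2 fold change was -2.86 (standard error 0.55, adjusted p = 0.0036, limma), with -1.53, -4.33 and -2.73 in the 3 mice. It was -3.55 when M11035 was left out and was called in all 15 alternative analyses.

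LYVE1 is also found on tissue macrophages, and 6 macrophage markers were measured beside it. Their summed level ranged from 289 CPM in M11035, the gland with the lowest *Lyve1*, to 936 CPM in M9232, and from 585 to 872 CPM in the tumors. Of the 6, *Itgam* was upregulated (log2 fold change 1.52) and *Cd163*, a scavenger receptor of resident macrophages, was downregulated, with *Csf1r*, *Cd68*, *Mrc1* and *Emr1* (F4/80) not called. *Cd163* was at 12.4, 108 and 42.4 CPM in the glands and at 4.09, 7.73 and 13.5 CPM in the tumors (log2 fold change -2.28, adjusted p = 0.031, limma). This call was lost without M11640 (-1.54), M9232 (-2.21), T11035 (-1.87) or T11640 (-2.29). *Cd163* and *Lyve1* had the same order in the 3 glands but not in the 3 tumors, and the number of *Lyve1* fragments per *Cd163* fragment overlapped between glands (1.77, 0.991 and 1.87) and tumors (1.77, 0.627 and 0.856). The part of such macrophages in the *Lyve1* level was not tested.

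*Prox1* (chromosome 1, 191945660 to 191994559), the regulator of lymphatic identity, was at 11.8, 6.61 and 22.4 CPM in the glands and at 3.91, 2.36 and 2.10 CPM in the tumors. The tumors, with 21, 18 and 14 fragments, all lay below the lowest gland. On the log2 scale the change was -1.98 (standard error 0.43, adjusted p = 0.0062, limma), with -1.48, -1.31 and -3.14 in the 3 mice, and the call was made in all 15 alternative analyses. The gland with the highest *Prox1*, M9232, was the one with almost no skeletal muscle transcripts, and it also had the highest summed lymph node stroma level. The B cell sum was instead highest in M11035 (739 CPM, against 477 CPM in M9232). The part of muscle or lymph node tissue in the *Prox1* level was not tested. *Prox1* shares 133 of its 4133 exonic bp with the antisense noncoding gene *Gm17566*. Reads within this stretch alone cannot be told apart, because the library kit does not mark strand.

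*Flt4* (chromosome 11, 49422765 to 49466241), the receptor for VEGFC and VEGFD, did not follow *Lyve1* and *Prox1*. It was at 11.4, 16.4 and 16.1 CPM in the glands and at 11.0, 9.70 and 13.04 CPM in the tumors, so that the tissues overlapped, although each tumor was below its own gland. Its log2 fold change was -0.36, with a 95% interval of -0.87 to 0.15 (adjusted p = 0.23, limma). For each *Flt4* fragment there were 1.93, 6.56 and 4.91 *Lyve1* fragments in the glands and 0.661, 0.5 and 0.885 in the tumors. The corresponding *Prox1* values were 1.04, 0.404 and 1.39 in the glands and 0.356, 0.243 and 0.161 in the tumors, and both ratios, chosen after their values were seen, were lower in every tumor than in every gland.

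Of 7 further genes used as markers of lymphatic endothelium, 5 were in the table, of which 3 were downregulated and 1 was upregulated (median log2 fold change -1.06). Over all genes, 13.7% were called lower and 14.5% were called higher. *Reln*, which encodes the secreted protein reelin and is made by lymph vessels, was at 21.8, 23.6 and 35.0 CPM in the glands and at 3.54, 2.10 and 1.35 CPM in the tumors (log2 fold change -3.31, adjusted p = 1.03e-04, limma). *Mmrn1*, which encodes multimerin and is shared with platelets, was at 8.74, 10.7 and 25.3 CPM in the glands and at 5.02 CPM in T11035 and 0 in the other two tumors. Its log2 fold change was -3.64 (adjusted p = 0.011, limma), and the call was lost with DESeq2 (adjusted p = 0.29). With 2 tumors at 0, the value depended on the pseudocount (-5.18 with 0.1 and -2.99 with 1) and was -4.80 without T11035. *Nr2f2*, a transcription factor of veins and lymph vessels, fell from 30.2 ± 3.27 CPM (SD, n = 3) to 14.3 ± 2.45 CPM, and its change of -1.06 on the log2 scale was under the threshold without M11640 (-0.99) or T11640 (-0.97).

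*Pdpn* went the other way. It encodes podoplanin, which lymphatic endothelium shares with basal epithelial cells and fibroblasts, and it rose from 2.64, 7.60 and 4.10 CPM in the glands to 21.6, 22.9 and 37.3 CPM in the tumors (log2 fold change 2.46, adjusted p = 9.38e-04, limma). The basal epithelial marker *Krt5* rose beside it, from between 9.96 and 36.1 CPM to between 913 and 1055 CPM. *Itga9*, an integrin of lymphatic valves, was at 22.4, 28.1 and 29.3 CPM in the glands and at 40.2, 48.6 and 48.7 CPM in the tumors. This rise passed the FDR (adjusted p = 0.0079, limma) without overlap, but its log2 fold change of 0.78 was under the fold threshold. *Foxc2* and *Ccl21a* were not matched in the table.

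Because *Cdh5* is held by both kinds of endothelium, each of the other 9 genes was divided by *Cdh5* within the same library, a measure that does not depend on how the libraries were scaled. For *Pecam1*, *Kdr*, *Tek* and *Lyve1*, the ratio was lower in all 3 tumors than in all 3 glands, and for *Flt1* it was higher. These 5 of 9 genes stood beside 37.2% of all genes whose ratio to *Cdh5* was separated between the tissues in either direction. The log2 difference of the ratio was -2.74 for *Lyve1*, -1.23 for *Tek*, -0.88 for *Kdr*, -0.62 for *Pecam1* and 0.36 for *Flt1*, each with an exact permutation p of 0.1 (two-sided), the smallest that 3 against 3 allows. After adjustment over the 9 ratios, the smallest exact permutation p was 0.18. For *Prox1* the difference was -1.86 and gland M11640 overlapped the tumors. The differences of *Tie1* (-0.24), *Flt4* (-0.24) and *Emcn* (0.40) had overlapping values. The number of separated genes was 8 when T11035 was left out, but complete separation is easier to reach with fewer libraries. The share over all genes was counted with all 6 libraries only.

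**Figure D4:**
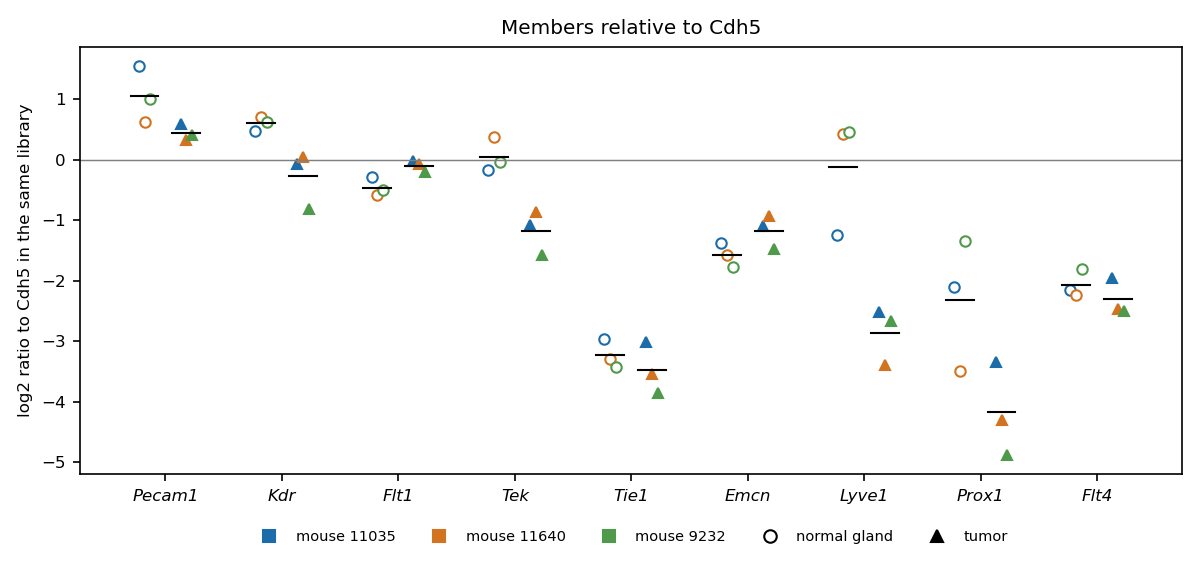
Log2 ratio of each endothelial gene to *Cdh5* in the same library, with open circles for normal glands, triangles for tumors, colors for mice and bars for the means of 3. For *Lyve1* the mean moves from -0.12 in the glands to -2.86 in the tumors, and for *Flt1* from -0.46 to -0.10.

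Levels can be compared between genes only per length, so CPM was divided by the length of the longest annotated transcript in kb. In the normal glands the order of the mean CPM per kb was *Pecam1* (38.1 ± 5.77, SD, n = 3), *Lyve1* (26.6 ± 16.7), *Kdr* (16.5 ± 4.95), *Cdh5* (15.8 ± 3.57), *Tek* (14.7 ± 6.45), *Flt1* (6.56 ± 0.931), *Emcn* (5.94 ± 1.44), *Prox1* (3.29 ± 1.95), *Flt4* (2.34 ± 0.449) and *Tie1* (1.48 ± 0.316). Of neighbors in this order, *Tek* and *Flt1*, and *Flt4* and *Tie1*, did not overlap, and the others did. In the tumors, *Pecam1* (23.0 ± 5.54) remained first, and *Cdh5* (14.7 ± 4.03) was second. They were followed by *Kdr* (8.03 ± 1.50), *Flt1* (7.84 ± 1.63), *Emcn* (7.20 ± 1.28), *Tek* (5.44 ± 1.03), *Lyve1* (3.02 ± 1.30), *Flt4* (1.797 ± 0.269), *Tie1* (1.11 ± 0.0842) and *Prox1* (0.675 ± 0.237).

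Thus *Lyve1* was the second of the 10 genes in the glands and the seventh in the tumors, and *Kdr*, *Flt1* and *Emcn* overlapped in the tumors. In the tumors the neighbors *Pecam1* and *Cdh5*, *Cdh5* and *Kdr*, *Tek* and *Lyve1*, *Flt4* and *Tie1*, and *Tie1* and *Prox1* did not overlap. With the union of all exons as the length, *Flt1* (3.91 and 4.67 CPM per kb in glands and tumors) and *Emcn* (3.87 and 4.69) were lower by more than 1.5-fold, and the order changed. *Kdr* (13.4) then came after *Cdh5* (15.8) and *Tek* (14.5) in the glands, and *Tek* (5.37) came before *Emcn* and *Flt1* in the tumors.

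The ligands of these receptors were examined next. For the counts in this and the following lists, the shares over all genes were 13.7% called lower and 14.5% called higher. Of 5 VEGF family ligands, 1 was upregulated and 2 were downregulated (median log2 fold change -0.61). *Pgf*, which encodes placental growth factor, a ligand of FLT1 alone among the VEGF receptors, was at 0.610, 0.826 and 0.821 CPM in the glands and at 4.84, 7.73 and 8.99 CPM in the tumors. Every tumor was above every gland, and the rise of 2.58 on the log2 scale was the largest among the 5 ligands (adjusted p = 3.02e-04, limma). The glands held 3, 5 and 6 *Pgf* fragments, so M11035 stood at the floor. Over the 15 alternatives the log2 fold change of *Pgf* ranged from 2.19 to 3.25, and it was called in all of them. *Vegfb*, another ligand of FLT1, had 9.48 ± 2.03 CPM (SD, n = 3) in the glands and 2.02 ± 0.465 CPM in the tumors, and its fall of 1.98 on the log2 scale passed both thresholds (adjusted p = 6.35e-04, limma).

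*Vegfa*, the main ligand of KDR, was at 172, 156 and 108 CPM in the glands and at 99.6, 97.4 and 84.5 CPM in the tumors. All tumors were below all glands, and the log2 fold change of -0.61 passed the FDR (adjusted p = 0.035, limma) but not the fold threshold, with an adjusted p of up to 0.11 over the alternatives. The ligands of FLT4 moved in opposite directions. *Figf*, the older symbol of *Vegfd*, was at 9.56, 29.2 and 17.6 CPM in the glands and at 1.86, 3.41 and 8.84 CPM in the tumors (log2 fold change -1.99, adjusted p = 0.018, limma), a call lost without M11640 (-1.61), T11035 (-1.54) or T11640 (-1.90). *Vegfc* was at 4.07, 6.44 and 6.57 CPM in the glands and at 12.7, 13.4 and 9.29 CPM in the tumors. Its log2 fold change of 0.998 (adjusted p = 0.016, limma) lay just under the threshold, and it was called higher in 8 of 15 alternative analyses, among them those without M11640 (1.09), M9232 (1.11) or T9232 (1.15). All 3 tumors were above all 3 glands for *Vegfc* and below them for *Figf*.

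The VEGF co-receptors *Nrp1*, *Nrp2* and *Plxnd1* had 0 of 3 genes called, with log2 fold changes of -0.44, 0.38 and 0.28. In the angiopoietin axis, 3 of 4 listed genes were in the table and 1 was downregulated. *Ptprb*, which encodes the endothelial phosphatase VE-PTP that acts on TEK, was at 186, 292 and 209 CPM in the glands and at 67.5, 84.7 and 107 CPM in the tumors (log2 fold change -1.40, adjusted p = 0.0014, limma). *Angpt2*, the ligand that can oppose TEK signaling, was at 11.8, 11.9 and 14.2 CPM in the glands and at 23.3, 21.1 and 26.8 CPM in the tumors. This difference passed the FDR (adjusted p = 0.0057, limma) without overlap, but its log2 fold change of 0.88 was under the fold threshold. *Angpt1*, the activating ligand, was at 45.5, 90.4 and 70.4 CPM in the glands and 47.8, 59.0 and 30.6 CPM in the tumors, which overlapped (log2 fold change -0.58, adjusted p = 0.16, limma).

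Among 17 other surface and secreted genes of endothelium, 5 were downregulated and 0 were upregulated, and the list's log2 median was -0.45. The downregulated genes were *S1pr1*, the sphingosine-1-phosphate receptor (log2 fold change -1.49), the receptor component *Ramp2* (-1.37), the adhesion molecule *Icam2* (-1.21), the adhesion GPCR *Eltd1* (-1.17) and the clotting factor *Vwf* (-1.07). *Ramp2* shares 1103 exonic bp with *Vps25*, so its value is uncertain. *S1pr1* is also a gene of lymphocytes, whose B cell markers fell between the same libraries. Without M11640, 3 of the 17 were downregulated, since *Vwf* (-0.99) and *Eltd1* (-0.97) were then not called; *Vwf* was also lost without T11035 (-0.88) or T11640 (-0.88) and with edgeR (-0.997) or DESeq2 (-0.995), and *Icam2* without M11035 (-0.92). The highest log2 fold change of the list was that of *Cd93* (0.40, adjusted p = 0.26, limma), at 81.1, 166 and 121 CPM in the glands and 130, 149 and 192 CPM in the tumors.

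Of 10 transcription factors of endothelium, 3 were downregulated and 2 were upregulated, and the median of the list was -0.92 on the log2 scale. *Klf2*, which responds to blood flow and is also made by lymphocytes, was at 14.6, 10.1 and 9.71 CPM in the glands and at 3.16, 3.54 and 1.95 CPM in the tumors (log2 fold change -1.83, adjusted p = 0.0012, limma). *Ets1* (-1.62), which lymphocytes share, and *Sox17* (-1.27), an arterial factor, were also downregulated. The ETS factors *Erg* and *Fli1* had values of -0.93 (adjusted p = 0.025, limma) and -0.91 (adjusted p = 0.0057, limma), which passed the FDR but not the fold threshold, and neither overlapped between the tissues. Over the alternatives the adjusted p reached 0.089 for *Erg*. *Gata2* rose from 2.44, 4.46 and 3.01 CPM to 46.7, 51.2 and 81.7 CPM (log2 fold change 3.98, adjusted p = 1.90e-05, limma), and *Sox7* had a log2 fold change of 1.36. The epithelial markers rose between the same libraries, and the cells in which *Gata2* and *Sox7* rose were not tested. The number called lower was 5 without M11640 and 6 without T9232.

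Genes that mark different beds of blood vessels were counted separately. Of 5 capillary genes, 4 were downregulated, and the median log2 fold change was -2.03. The 2 genes with the largest falls, *Fabp4* (-4.55) and *Cd36* (-4.50), encode fatty acid handling proteins that adipocytes also make in quantity, and the adipocyte markers had a median of -6.38 between the same libraries. *Car4*, a membrane carbonic anhydrase, and *Rgcc* (listed as *1190002H23Rik*) were also downregulated. *Gpihbp1*, which carries lipoprotein lipase across capillary endothelium, was at 8.13, 7.76 and 7.52 CPM in the glands and at 3.16, 1.70 and 6.59 CPM in the tumors. Its log2 fold change of -1.11 missed the FDR (adjusted p = 0.054, limma) and passed it in the paired fit with the mouse as a block (adjusted p = 0.049, limma) and without T9232 (-1.55).

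Of 6 arterial genes, 2 were upregulated, *Efnb2* (log2 fold change 1.34) and the connexin gene *Gja5* (1.25), and *Bmx*, a tyrosine kinase of arterial endothelium, was downregulated (-1.41). The cells in which *Efnb2* and *Gja5* rose were not tested. The call of *Gja5* was lost without M11035 (0.98), T11640 (1.02) or T9232 (1.30) and that of *Bmx* without M11640 (-1.15), T11035 (-1.12) or T9232 (-1.37), and *Gja5* shares 165 exonic bp with *Gpr89*. Of 6 genes of venous and activated endothelium, *Darc* (*Ackr1*), a chemokine-binding receptor of venules, was downregulated (-1.92, adjusted p = 0.0042, limma) and 0 were upregulated. The highest value of that list was that of *Aplnr*, the apelin receptor (0.72, adjusted p = 0.14, limma), which was called without M11640 (1.03).

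Genes of tip cells, the leading cells of vessel sprouts, had the highest median of the 11 vascular lists. Of 5 genes, 4 were upregulated and 0 downregulated, where 14.5% of all genes were called higher. The log2 median was 1.78 against 0.00 for all genes. *Unc5b*, a netrin receptor, was at 3.86, 5.45 and 6.98 CPM in the glands and at 43.7, 53.2 and 30.9 CPM in the tumors (log2 fold change 2.86, adjusted p = 8.79e-05, limma). *Apln*, which encodes apelin, was at 4.47, 7.76 and 3.97 CPM in the glands and at 14.3, 15.9 and 30.4 CPM in the tumors (log2 fold change 1.78, adjusted p = 0.0038, limma). The tumors were above the glands without overlap for both genes.

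*Kcne3*, a potassium channel subunit, had a log2 fold change of 2.49 and was called in all 15 alternative analyses. Its gland values rest on 4, 13 and 10 fragments, so M11035 was near the floor. *Esm1*, which encodes endocan, had a log2 fold change of 1.01, a call made in 8 of 15 alternative analyses. That call was lost, among others, without M11035 (0.84), M9232 (0.92) or T11035 (0.92). The Notch ligand *Dll4* was at 2.64, 2.48 and 1.09 CPM in the glands and at 1.86, 2.75 and 4.05 CPM in the tumors, with overlap (log2 fold change 0.41, adjusted p = 0.43, limma). None of these genes is restricted to endothelium in all tissues, and the epithelial markers rose between the same libraries.

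Pericytes, the mural cells around capillaries, were described by 7 genes, of which 2 were upregulated and 0 downregulated (median log2 fold change -0.07). *Pdgfrb*, the PDGF receptor that pericytes share with fibroblasts, was at 23.4, 29.2 and 20.9 CPM in the glands and at 63.5, 72.3 and 83.5 CPM in the tumors (log2 fold change 1.56, adjusted p = 2.73e-04, limma). *Rgs5*, a regulator of G protein signaling that is abundant in pericytes, overlapped, at 89.9, 185 and 95.3 CPM in the glands and 68.3, 92.3 and 108 CPM in the tumors. *Abcc9*, a subunit of a potassium channel, had a log2 fold change of -0.90 that passed the FDR (adjusted p = 0.0083, limma) but not the fold threshold. *Ndufa4l2*, the other upregulated gene, was at or under the floor of 3 fragments in all 3 glands.

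**Figure D5:**
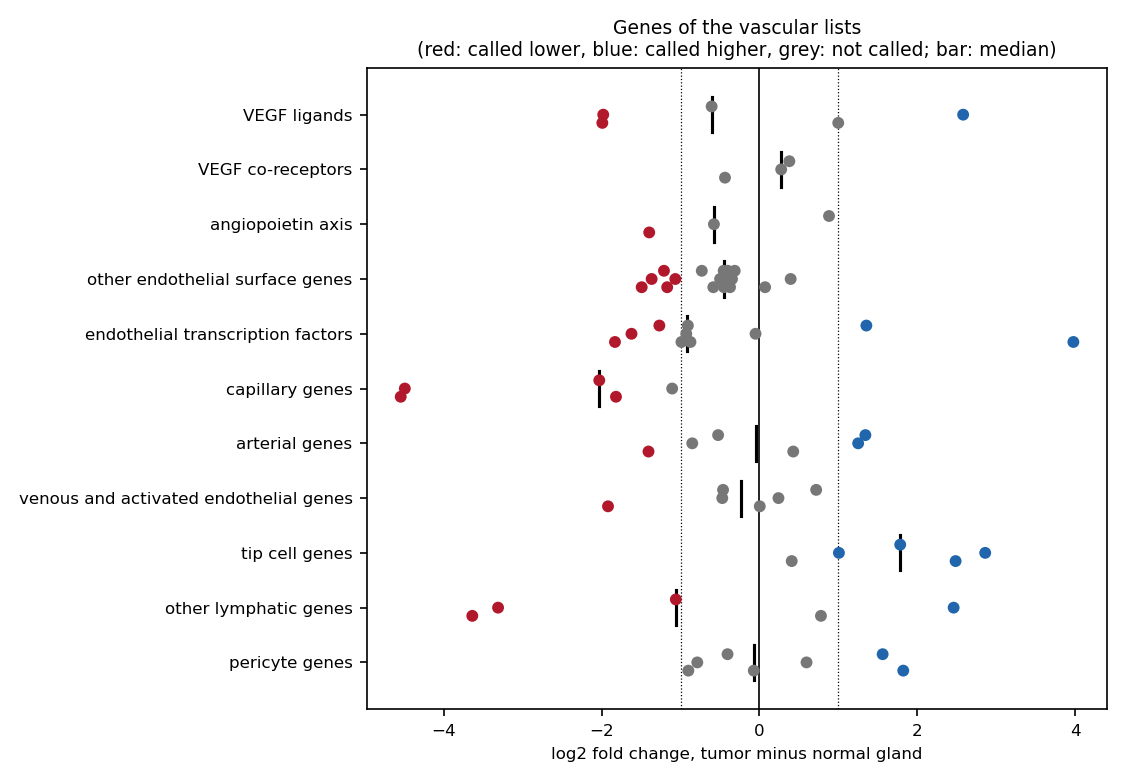
Log2 fold change, tumor minus normal gland, of each gene in 11 vascular lists, with red for genes called lower, blue for genes called higher, grey for genes not called and a bar for the median of the list. The capillary median lies at -2.03 and the tip cell median at 1.78, while the medians of the arterial and pericyte lists are near 0.

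Finally, the genes whose pattern was most like that of the endothelial genes were sought among the 9331 other genes whose mean was 10 CPM or more. Likeness was Pearson's r between the log2(CPM + 0.5) of a gene and the mean of the 10 endothelial genes over the 6 libraries, which fall into 2 tissues, so that the value is a description only. Among the 5 highest were *Gpr116* (0.997), *Tmod2* (0.995), *Abca8b* (0.993) and *Tnxb* (0.992), and the 100th gene still reached 0.969. The log2 fold changes of these 4 genes were -1.37, -1.23, -2.79 and -3.20. *Gpr116* was at 190.1, 314 and 231 CPM in the glands and at 80.9, 88.9 and 109.5 CPM in the tumors, and like most of the endothelial genes it was highest in M11640 among the glands.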

How the data were processed

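RNA was extracted with Trizol, and libraries were prepared with the Ovation RNA-Seq System V2, which does not mark strand. According to the methods and the submitters' processing notes, the authors mapped read pairs to mm9 with TopHat2 (2.0.3), counted fragments per RefSeq gene with HTSeq (0.5.3p9) and removed genes with fewer than 10 fragments in all. The deposited values are a normalized expression signal, CPM on edgeR's effective library size, with columns that summed to between 952151 and 1041170. The main test had been chosen for CPM, and the unit was recorded as a signal because of these sums, which takes the same test. All values (100%) were whole multiples of 1 step per library, within 0.01 fragments, so fragments were recovered by division.

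Of the per-sample columns, 0 were left out. Libraries were grouped by the tissue in their labels, and no library repeated another of its tissue (lowest chi-square per degree of freedom 13.0). The moderated test of limma 3.58.1 (R 4.3.3) was fitted to log2(CPM + 0.5), two-sided, without a block and with the variance as a trend of the mean, and with Benjamini-Hochberg adjustment over 15280 genes. Fold changes on this scale understate the change of low genes. Alternatives were pseudocounts of 0.1 and 1, a mean of at least 1 CPM, the mouse as a block, other scalings, edgeR 4.0.16 and DESeq2 1.42.0 on the recovered fragments, and leaving out each library. The 2 libraries of a mouse come from 1 animal, so the mouse numbers pair them, and their deviations from the group means correlated with r = 0.107, 0.151 and 0.017 over 14712 genes. The test was checked on simulated data.

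The endothelial genes and the 19 other lists were chosen with earlier results of these data known. Genes named are the 10 endothelial genes, the highest and lowest of each list with a mean of at least 1 CPM, 7 defining markers and the 5 genes most like the endothelial genes, of which 1 is not reported here; other list genes were named after their values were seen. Positions are from the mm9 annotation (GENCODE vM1), and transcripts were compared with BLAST 2.17.0. Promoter windows are from RefSeq (GRCm38.p6), whose coordinates are not mm9.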

Additional observations from a re-analysis of the deposited data

How the results depend on the processing

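Over 15 alternatives, the number of genes called ranged from 3774 (without T11640) to 4462 (edgeR), with 3 or 4 of the endothelial genes called lower and 0 higher. *Tek*, *Lyve1* and *Prox1* were called in all 15. *Kdr* was not called with a pseudocount of 1 (-0.996) or DESeq2 size factors (-0.998), and its log2 fold change ranged from -1.19 to -0.78 as each library was left out. That of *Cdh5* ranged from -0.32 to 0.06, turning positive without M11640 (0.055) or T11035 (0.065), and that of the platelet gene *Pf4* from -0.067 (without M11035) to 0.66, none of them called. Of the ratios to *Cdh5*, 5 to 8 were separated between the tissues when a library was left out, and 8 of 9 kept 1 sign in every mouse in the paired view, which asks for the sign only. No share over all genes was counted for these settings. With the replicate block, 4298 genes were called with limma and the same 4 endothelial genes, and *Gpihbp1*, *Cxcl13* and *Myh4* gained calls. With 3 mice per tissue, an exact permutation test of a single gene cannot go below 0.1. At 14 to 21 fragments in a tumor, *Prox1* is the endothelial gene with the least depth there. The causes of these shifts were not tested.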

Other observations

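Further ratios of fragments within a library, chosen after their values were seen and given without a test, concern the ligands. There were 0.259, 0.132 and 0.202 *Angpt2* fragments per *Angpt1* fragment in M11035, M11640 and M9232, against 0.486, 0.358 and 0.877 in T11035, T11640 and T9232, so every tumor was above every gland. For *Pgf* over *Vegfa* the values were 0.00354, 0.00528 and 0.00761 in the glands and 0.0486, 0.0794 and 0.106 in the tumors. The gland values rest on 3, 5 and 6 *Pgf* fragments. In the lymphatic genes, *Prox1* over *Reln* went up, from 0.542, 0.280 and 0.641 in the glands to 1.11, 1.13 and 1.56 in the tumors, since *Reln* was lower in the tumors by more than *Prox1*.

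Over 8 cell type lists besides the endothelial genes, the red cell list was represented by *Alas2* alone, at 16.4 to 22.6 CPM in the glands and 12.0 to 19.9 CPM in the tumors, a difference of -0.40 on the log2 scale. The other 3 of its genes were not matched in the table.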
